A study of Mus musculus with 2 samples.

Results

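The genes described here are 6 members of the fibroblast growth factor (FGF) family that mouse embryonic stem cells and their early derivatives use: the ligand genes Fgf4, Fgf5, Fgf8 and Fgf15, and the receptor genes Fgfr1 and Fgfr2. They were chosen by symbol from the 32285 genes listed for each library, and all 6 were present. The question was which cell state carried which ligand and which receptor, in each library. The cells were embryonic stem cell lines of the inbred mouse strain C3H/HeSn-Paf/J, 3 independent lines from XX embryos, 3 from XO embryos and 3 from XY embryos, and all 9 were pooled. Both libraries came from that same pool design, 1 at an early passage (time 1) and 1 after 10 more passages (time 2), and both cultures had serum, leukaemia inhibitory factor, gelatin and a layer of irradiated embryonic fibroblasts, the feeders. No treatment other than passaging separated them. Lipid tags meant to mark lines were not used, so a cell could not be traced to its line, the lines are not replicates here, and each time point is 1 library without replicates. Differences are therefore given as sizes with intervals that cover counting error only, and no test between groups was made. The intervals leave out the spread between cells, so levels called apart are so in counting error only.

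FGF ligands are secreted proteins that bind receptor tyrosine kinases together with heparan sulfate, and the bound receptors signal through adaptor proteins, Ras and the ERK kinases. ERK activity in turn induces inhibitors of the same pathway, among them the Sprouty proteins and the phosphatase Dusp6. In mouse embryonic stem cells Fgf4 is the classic autocrine ligand, through which the cells drive their own readiness to differentiate. Fgf5 is the textbook marker of the epiblast after implantation, Fgf8 is a ligand of the primitive streak and the early mesendoderm, and Fgf15, an endocrine-type FGF, is known from early neural tissue and ileum. Fgfr1 is the main receptor of epiblast and embryonic stem cells, and Fgfr2 is best known in trophoblast and primitive endoderm.

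The cells kept numbered 24405 at time 1 and 25771 at time 2, and their median depths were 43917 and 50203 unique molecular identifiers (UMIs, counted transcripts). Unsupervised clustering, in which all 30 autosomal genes named as FGF ligands, receptors or relatives were left out so that no member could shape a cluster, gave 13 cell states. States with a name ending in "like" were named from marker lists that hold no FGF gene, and the others are called by their leading gene. The pluripotent stem cell-like class was made of a Jam2-led, a 1700097N02Rik-led and a Nanos3-led cluster, with 2061, 56 and 118 cells at time 1 and 2233, 10975 and 5955 at time 2. Primed epiblast-like cells numbered 6478 and 348, T-led cells 119 and 3945, mesendoderm-like cells 221 and 227, endoderm-like cells 51 and 125, fibroblast-like cells 501 and 721 and H19-led cells 8105 and 954. A Spry2-led cluster held 6398 cells at time 1, with the lowest median depth of any state there (28036 UMIs), and 14 cells at time 2. A Krt18-led cluster of 68 cells with a median of 352473.5 UMIs was found at time 1 only. Both are left without a name, and the part of free RNA or mixed cells in their levels was not tested. The libraries shared 164 barcodes among their cells. Time 1 also held 85545 barcodes with fewer than 2000 UMIs (9001 at time 2). They were taken as free RNA, though whether some are small or damaged cells was not tested. By the level of feeder collagens, up to 22.1% of the UMIs of a pluripotent cell at time 1, against up to 4.82% at time 2, could be such background. For pluripotent cells this is an upper limit: if each cell held as many free UMIs as the median barcode of that kind, the shares would be 3.16% and 1.27%. That smaller level was chosen after the data were seen. It also depends on the limit of 2000 UMIs and on the deposit, whose smallest barcodes have 500 and 524 UMIs. Both levels are applied to all states, but feeder markers were higher in several others, such as primed epiblast-like cells, for which the larger level is no upper limit.

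The Fgf4 and Fgf5 promoters are shown because these ligands had opposite patterns over the states. Each is the 250 bases before the RefSeq gene start on assembly GRCm38.p6, plus strand, read 5′ to 3′. Fgf4 lies at chr7:144861136-144861385 and Fgf5 at chr5:98253934-98254183. Capitals mark matches to a GC box (GGGCGG, or CCGCCC on the other strand) and, in Fgf4, 2 overlapping matches to TATATA, which reads the same on both strands.
Fgf4: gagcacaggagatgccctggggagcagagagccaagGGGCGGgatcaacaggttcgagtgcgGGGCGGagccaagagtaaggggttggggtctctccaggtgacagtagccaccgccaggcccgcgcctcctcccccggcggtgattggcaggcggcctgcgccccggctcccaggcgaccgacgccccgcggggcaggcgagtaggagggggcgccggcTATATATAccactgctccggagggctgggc
Fgf5: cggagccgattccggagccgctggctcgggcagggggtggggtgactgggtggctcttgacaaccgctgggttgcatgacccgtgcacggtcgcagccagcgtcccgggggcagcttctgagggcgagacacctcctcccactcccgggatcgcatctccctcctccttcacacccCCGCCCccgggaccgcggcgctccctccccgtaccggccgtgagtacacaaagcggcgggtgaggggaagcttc
Both windows were GC-rich, at 71.2% and 70.8%. The Fgf4 window held 2 GC boxes, which began 214 and 188 bases before the gene start, and the TATATA matches began 30 and 28 bases before it. The Fgf5 window held 1 GC box, 74 bases before the start, and no TATATA. A GC box was present in 32.7% of all 32851 promoter windows of this length and TATATA in 5.25%, so these letters are a description and not evidence of a bound site.

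In RefSeq on the same build, Fgf4 spans chr7:144861386-144865245 on the plus strand, and Fgf15 lies 31286 bases downstream of it at chr7:144896532-144900953, also on the plus strand. Fgf5 spans chr5:98254184-98277033 on the plus strand, Fgf8 chr19:45736491-45742941 on the minus strand, Fgfr1 chr8:25518759-25575718 on the plus strand and Fgfr2 chr7:130162451-130266808 on the minus strand. Fgf15 overlaps the antisense genes Gm26793 and Gm39119, and Fgfr1 overlaps the antisense gene Gm16159. Whether counting used the strand is not given in the sources used here, so their reads may be shared with those genes. GENCODE M21 also holds a model of Fgfr2 that spans 2960900 bases and overlaps many other genes, so its count is uncertain in the same way.

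Fgf4, the autocrine ligand, was highest in the Jam2-led pluripotent cluster in both libraries. Its level there was 93.2 CPM (UMIs of the gene per 1000000 UMIs summed over all genes and cells of the state) in the first library, with an exact Poisson 95% interval of 91.6 to 94.8, and 113 in the second, with an interval of 111 to 115. The 1700097N02Rik-led cells had 54.5 and 61.4 CPM and two-cell-like cells 38.9 and 63.2, not separable from each other at time 2, and Nanos3-led cells, the other pluripotent cluster, had 35.0 and 30.6. Fgf4 was thus not even over the pluripotent class, and the Nanos3-led level was close to that of the H19-led cells, at 31.8 and 26.1 CPM. Spry2-led cells had 28.7 CPM at time 1, where barcodes under 2000 UMIs had 52.6. T-led cells had 23.3 and 20.9 CPM, primed epiblast-like cells 17.2 and 15.6, fibroblast-like cells 13.5 and 20.2, and endoderm-like cells 11.4 and 14.8. Mesendoderm-like cells were lowest in both libraries, at 5.77 and 4.90 CPM, which made the highest level 23.0 times the lowest at time 2. At time 1 the ratio was 16.1, but the levels of mesendoderm-like, Ctla2a-led and endoderm-like cells lay under 11.6 CPM, the limit of background set in pluripotent cells. They lay above the 1.66 CPM of the smaller level. Intervals of neighbours in this order overlapped in 7 of 12 pairs at time 1 and 4 of 10 at time 2, mostly among the low states.

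Counted by cells, a Fgf4 UMI was found in 56.0% of Jam2-led cells at time 1 and 65.7% at time 2 after each cell was thinned to 10000 UMIs, and in 93.3% and 97.3% with all UMIs. In mesendoderm-like cells, which carried least, the thinned shares were 3.17% and 4.85%, and median depths were 61565 and 57278 UMIs for Jam2-led cells against 43906 and 45494 for mesendoderm-like cells. Feeders should lack Fgf4, and fibroblast-like cells showed it in 13.8% and 13.5% of thinned cells, at median depths of 43041 and 63360. These fibroblast-like cells also held Pou5f1, the pluripotency factor, at 34.3% and 45.3% of the level of the pluripotent class, and Fgf4 at 15.1% and 34.0% of it. Under a stricter doublet threshold, added after the data were seen, the log2 ratio of Fgf4 in fibroblast-like over pluripotent cells at time 2 went from -1.51 to -3.18. Fgf4 shares of primed epiblast-like cells, 14.4% and 12.9%, lay near the share in feeders and above that in mesendoderm-like cells. Less the upper limit of background RNA set in pluripotent cells, 7.19 and 13.5 CPM of Fgf4 were left in the primed cells, against 0 and 2.28 in mesendoderm-like cells. Fibroblast markers summed to 31.9 and 160 CPM in primed cells, against 10.0 and 11.3 in the pluripotent class, so background in primed cells can exceed that limit. How much of their Fgf4 is free RNA was not tested.

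**Figure D1:**
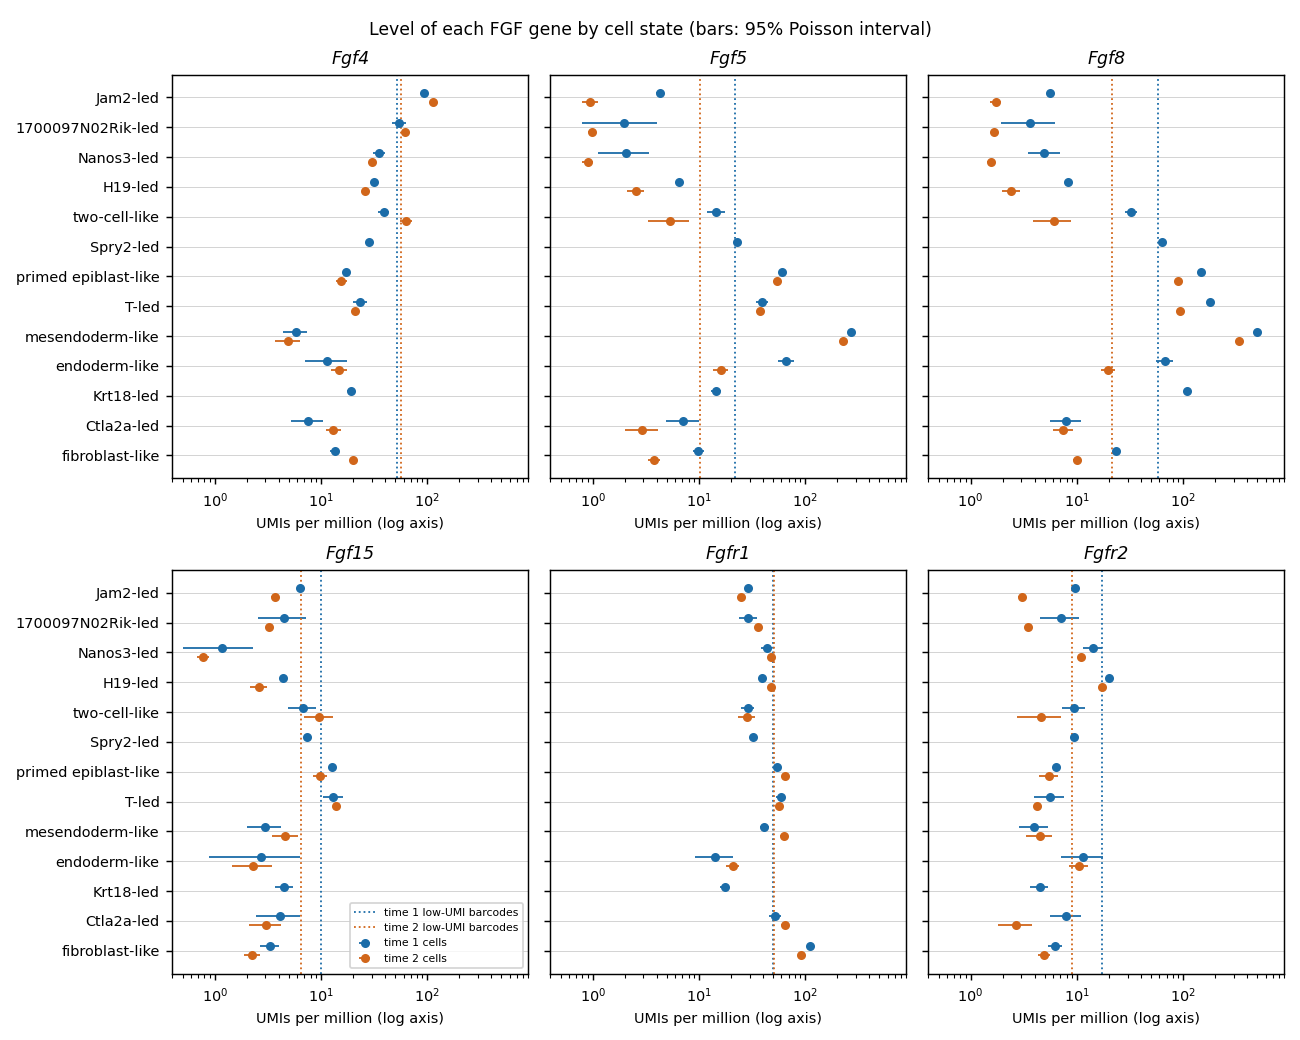
Level of each of the 6 genes in each cell state, as CPM on a log axis with exact Poisson 95% intervals, 1 point per library (time 1 and time 2), beside the level in barcodes under 2000 UMIs. Fgf4 peaks in the Jam2-led cluster (93.2 and 113 CPM), Fgf5 and Fgf8 in mesendoderm-like cells (271 and 229; 494 and 333 CPM), Fgfr1 in fibroblast-like cells (111 and 92.0 CPM) and Fgfr2 in the H19-led cluster (20.1 and 17.4 CPM).

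Fgf5, the ligand of the epiblast after implantation, was highest in mesendoderm-like cells, at 271 CPM (261 to 281) and 229 CPM (220 to 238). Primed epiblast-like cells had 60.5 and 54.6 CPM, and T-led cells, which carried T (Brachyury) together with the epiblast markers, had 39.4 and 37.9. Endoderm-like cells had 66.5 CPM at time 1, not separable from primed cells, and 16.04 at time 2, below them. Pluripotent cells were at the bottom in both libraries, with 4.29, 2.04 and 1.97 CPM in the Jam2-led, Nanos3-led and 1700097N02Rik-led clusters at time 1, and 0.944, 0.904 and 0.982 at time 2. The pluripotent levels at time 1 lay under the 4.80 CPM that the upper limit of background allows and above the 0.686 CPM of the smaller level, so whether Fgf5 in these cells exceeds free RNA depends on which is taken. Spry2-led cells had 22.7 CPM at time 1, near the 21.7 of barcodes under 2000 UMIs. H19-led cells had 6.53 and 2.55 CPM and fibroblast-like cells 9.89 and 3.79. Neighbours in the order overlapped in 5 of 12 pairs and 5 of 10.

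Thinned to equal depth, 87.3% and 82.4% of mesendoderm-like cells held a Fgf5 UMI (98.2% and 95.6% with all UMIs), against 35.8% and 30.5% of primed epiblast-like cells (63.6% and 52.3%) and 21.01% and 26.2% of T-led cells. The pluripotent class gave 3.45% and 0.929%, and fibroblast-like cells 8.98% and 2.22%. Median depths in the primed cells were 47335.5 and 43748 UMIs, against 43906 and 45494 in mesendoderm-like cells. Most mesendoderm-like cells held a Fgf5 UMI with or without thinning, whereas for primed epiblast-like cells the share was above 50% only with all UMIs. The share found in primed cells thus changes with depth. The 6478 primed cells of time 1 held 21107 Fgf5 UMIs in all, yet only 63.6% of them held any, so these UMIs were spread unevenly over cells.

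Fgf8, the streak ligand, followed a similar order. Mesendoderm-like cells had 494 CPM (481 to 508) and 333 CPM (322 to 344), T-led cells 180 and 93.9, and primed epiblast-like cells 147 and 90.3. The counting intervals of the T-led and primed levels were apart at time 1 but overlapped at time 2. They leave out the wide spread of Fgf8 between the 119 T-led cells of time 1, so they do not show that these levels differ beyond it. Endoderm-like cells had 67.0 and 19.7 CPM, and Spry2-led cells 64.1 at time 1, where barcodes under 2000 UMIs had 57.9. Krt18-led cells had 109 CPM at time 1, two-cell-like cells 32.7 and 6.03, and fibroblast-like cells 23.5 and 9.93. Pluripotent clusters ranged from 3.66 to 5.65 CPM at time 1 and from 1.55 to 1.72 at time 2, again under the upper limit of background at time 1, 12.8 CPM, but above the smaller level, 1.83 CPM. The span from highest to lowest state was 135 times at time 1 and 215 times at time 2, and for Fgf5 it was 138 and 253 times. The lowest levels of both at time 1 were under the upper limit of background.

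A Fgf8 UMI was found in 95.5% and 89.4% of thinned mesendoderm-like cells (100% and 98.7% with all UMIs). It was found in 50.7% and 36.5% of primed epiblast-like cells (72.6% and 54.3%) and in 45.4% and 38.8% of T-led cells (61.3% and 63.3%). The pluripotent class gave 6.13% and 1.60%, and fibroblast-like cells 18.96% and 4.30%. Fgf8 was spread unevenly over T-led cells: the variance of thinned counts was 6.48 and 3.66 times their mean, and single cells reached 21 UMIs in both libraries. In primed cells the same ratio was 3.61 and 3.09, whereas for Fgf4 in Jam2-led cells it was 1.33 and 1.198, near the value of 1 that pure counting gives.

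Mesendoderm-like cells carried all 7 mesendoderm markers, summing to 1189 and 1109 CPM against 9.80 and 6.55 in the pluripotent class, among them Lhx1 at 484 and 501 CPM and Gsc at 252 and 159. T-led cells carried 7 and 6 of these markers at 153 and 65.0 CPM in sum. Primed epiblast-like cells carried all 7 primed markers, summing to 741 and 632 CPM against 237 and 156 in the pluripotent class, which also held all 7. These markers were not particular to them: they summed to 756 and 527 CPM in mesendoderm-like cells and 668 and 677 in T-led cells. Primed cells had Pou3f1 at 172 and 164 CPM and Otx2, higher in the pluripotent class at time 1, at 38.6 and 27.0. The primed cells of time 2 also held 6 of 8 fibroblast markers at 160 CPM in sum, against 31.9 at time 1, and the part of other cells' RNA in their values was not tested.

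Fgf15, the endocrine-type ligand, was low in every state. It was highest in T-led cells, at 13.0 and 13.8 CPM, and primed epiblast-like cells, at 12.8 and 9.78, the latter not separable from two-cell-like cells at 9.65, and lowest in Nanos3-led cells, at 1.17 and 0.775. Jam2-led cells had 6.36 and 3.72 CPM, and mesendoderm-like cells, where Fgf5 and Fgf8 peaked, had only 2.98 and 4.63. Barcodes under 2000 UMIs had 9.94 and 6.55 CPM, and less the upper limit of background 1 of 13 states, the lowest, was at 0 at time 1. Neighbours overlapped in 10 of 12 pairs at time 1 and 6 of 10 at time 2, so the order below the leading states is not resolved. A Fgf15 UMI was found in 11.9% and 9.48% of thinned primed cells (37.1% and 27.0% with all UMIs) and 6.72% and 12.5% of T-led cells (34.5% and 41.4%), against 2.26% and 6.17% of mesendoderm-like cells and 4.39% and 1.80% of fibroblast-like cells.

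Fgfr1, the main receptor gene of embryonic stem cells, was found in every state. Fibroblast-like cells were highest, at 111 CPM (107 to 114) and 92.0 (89.5 to 94.6), and endoderm-like cells lowest, at 14.2 and 20.8, a span of 7.81 and 4.43 times. At time 1, T-led, primed epiblast-like, Ctla2a-led, Nanos3-led and mesendoderm-like cells had 59.0, 54.1, 51.9, 43.5 and 41.2 CPM, each overlapping the next. At time 2 the primed, Ctla2a-led and mesendoderm-like states, at 64.8, 64.4 and 63.3 CPM, overlapped one another, followed by T-led cells at 56.3, and by Nanos3-led and H19-led cells, which both had 47.6. Jam2-led cells, the state with most Fgf4, were near the bottom for Fgfr1, at 28.9 and 24.7 CPM. No state had a level under the limit of background set in pluripotent cells, in either library.

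A Fgfr1 UMI was found in 49.9% and 52.6% of thinned fibroblast-like cells (80.4% and 88.8% with all UMIs), 25.1% and 21.4% of Jam2-led cells (76.3% and 72.5%) and 15.7% and 16.8% of endoderm-like cells (39.2% and 52.0%), whose median depths were 28352 and 63873 UMIs. The fibroblast-like cells carried all 8 fibroblast markers, at 3702 and 3314 CPM in sum, against 10.0 and 11.3 in the pluripotent class. At time 1 the cluster also held 5 of 5 macrophage markers at 829 CPM, against 25.5 at time 2, and Fgfr1 was highest there in both libraries.

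Fgfr2, the receptor gene of trophoblast and primitive endoderm, was highest in the H19-led cluster, at 20.1 CPM (19.7 to 20.6) and 17.4 (16.2 to 18.7). Nanos3-led cells had 14.2 and 11.0 CPM, and endoderm-like cells 11.4 and 10.4. Jam2-led cells had 9.65 and 3.06 CPM, primed epiblast-like cells 6.41 and 5.47, and mesendoderm-like cells, lowest at time 1, had 3.94 and 4.46. Barcodes under 2000 UMIs had 17.1 and 9.01 CPM. Less the upper limit of background no state was at 0, but the log2 ratio of time 2 over time 1 in mesendoderm-like cells moved from 0.14 to 2.11. Intervals of neighbours overlapped in 11 of 12 pairs at time 1 and 7 of 10 at time 2, and the H19-led level was apart from the next in both. A Fgfr2 UMI was found in 17.5% and 15.5% of thinned H19-led cells (53.3% and 44.8% with all UMIs) at median depths of 48450 and 41180, against 3.17% and 3.08% of mesendoderm-like cells. H19-led cells carried Krt7 at 36.3 and 74.7 CPM and Ascl2 at 20.9 and 27.6, while Tpbpa was at 0 and Elf5 at 0.30 and 1.11 CPM. Only 2 trophoblast markers were at least 2-fold above all other cells, where the naming rule needed 3. The cluster was therefore not named trophoblast-like. Its 8 trophoblast markers summed to 69.5 and 158 CPM, with 4 and 7 of them at 1 CPM or more, against 27.6 and 8.19 in the pluripotent class.

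Against the pluripotent class of the same library, Fgf4 was lower and Fgf5 and Fgf8 were higher in primed epiblast-like, mesendoderm-like and endoderm-like cells. This reference differed between libraries: 2061 of its 2235 cells were Jam2-led, the state with most Fgf4, at time 1, but 2233 of 19163 at time 2. Its Fgf4 level was 89.5 and 59.2 CPM, so the Fgf4 ratios of time 1 and time 2 are not the same contrast. A member was counted as past 2-fold where its log2 ratio of CPM plus 1 was at least 1 in size and either side had at least 10 CPM. In primed epiblast-like cells the log2 ratios at time 1 and time 2 were -2.31 and -1.86 for Fgf4, 3.58 and 4.83 for Fgf5, and 4.49 and 5.11 for Fgf8. These were the 3 members past 2-fold in each library, where 14.0% of all genes tested were past it at time 1 and 15.8% at time 2. Fgfr1 was higher by 0.85 and 0.77 and Fgf15 by 0.96 and 1.58, the latter under the CPM minimum at time 2, and Fgfr2 had -0.54 and -0.02. Subtracting the upper limit of background RNA, which set Fgf5 and Fgf8 of the pluripotent class to 0 at time 1, moved these ratios to -3.62 and -2.06 for Fgf4, 6.18 and 5.28 for Fgf5 and 7.44 and 5.86 for Fgf8, and the smaller level moved Fgf5 to 3.79 and Fgf8 to 4.96 at time 1. With the upper limit subtracted, 5 members were past 2-fold at time 1, Fgf15 (1.29) and Fgfr1 (1.18) being added. With the H19-led cluster counted as pluripotent, 5 were too, Fgf15 (1.25) and Fgfr2 (-1.32) being added.

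Mesendoderm-like cells had the steepest ratios, -3.74 and -3.35 for Fgf4, 5.73 and 6.88 for Fgf5, and 6.24 and 6.98 for Fgf8. Those 3 members were past 2-fold in both libraries, where the background was 19.9% and 19.5% of genes. Fgfr1 was higher by 0.46 and 0.73 only. In endoderm-like cells Fgf4 was at -2.86 and -1.93, Fgf5 at 3.72 and 3.12 and Fgf8 at 3.37 and 2.97, and Fgfr1 was lower, at -1.01 and -0.83. This gave 4 members past 2-fold at time 1 and 3 at time 2, against 16.3% and 15.4% of genes. In fibroblast-like cells Fgfr1 was higher, at 1.87 and 1.26, and Fgf4 lower, at -2.64 and -1.51, and Fgf8 was higher by 1.90 at time 1 (2.05 at time 2, under the minimum), which gave 3 and 2 members against 34.7% and 26.4% of genes. All of these ratios share the pluripotent cells of their library, so they are not separate evidence for Fgf4. Under every alternative that gave a value, Fgf4 stayed below 0 and Fgf5 and Fgf8 above 0 in these 4 classes.

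**Figure D2:**
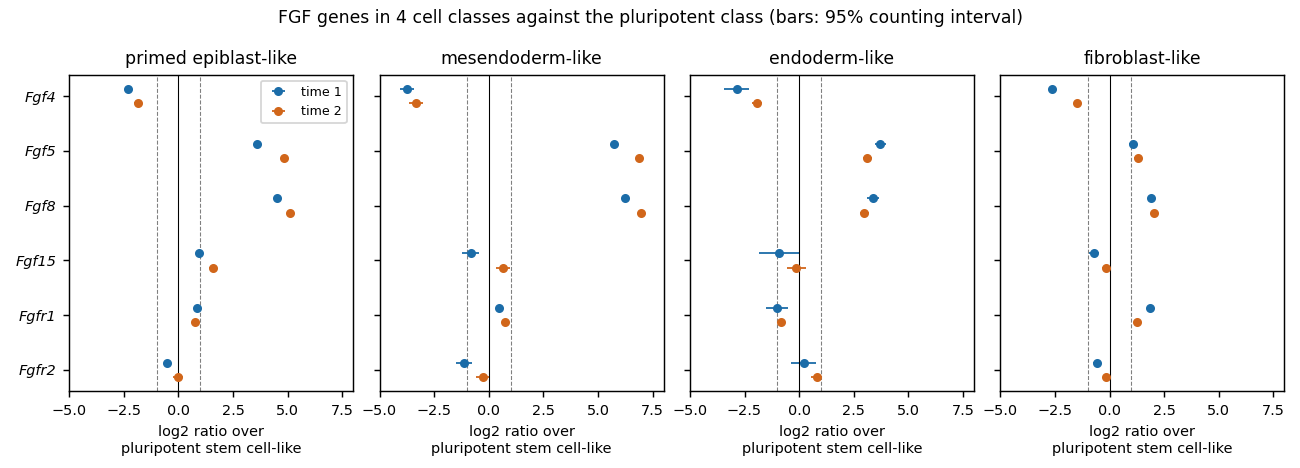
Log2 ratio of CPM plus 1 of each gene in 4 classes of cells over the pluripotent stem cell-like class, for time 1 and time 2, with intervals for counting error and lines at 2-fold. Fgf8 reaches 6.24 and 6.98 in mesendoderm-like cells, Fgf4 is below 0 in every class, and Fgfr1 is above 1 in fibroblast-like cells only.

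In primed epiblast-like and T-led cells, among other states, Fgf5 and Fgf8 were found in the same cells more often than the product of their separate shares. Among thinned primed epiblast-like cells at time 1, 71.6% of the 2318 cells with a Fgf5 UMI also had a Fgf8 UMI, against 39.1% of the 4160 without. At time 2 it was 67.0% of 106 cells against 23.1% of 242. In T-led cells the shares were 68.0% against 39.4% at time 1 and 62.8% against 30.2% at time 2, whereas in mesendoderm-like cells, where 85.1% and 74.9% of thinned cells held both, they were 97.4% against 82.1% of 28 cells without and 90.9% against 82.5% of 40, with the joint share 1.02 times the product in both libraries. Over the 10 combinations of state and library with at least 10 cells holding both, the observed share was 1.02 to 2.60 times the product of the separate shares, with a median of 1.45. The largest ratios were in H19-led (2.60) and fibroblast-like cells (2.34) at time 1. Primed epiblast-like cells had 1.41 and 1.84 at time 1 and time 2, and T-led cells 1.499 and 1.62. The excess was thus not particular to primed and T-led cells. In states with fewer than 10 cells holding both, the order could be the other way, as in Jam2-led (4.05% against 6.14%) and Krt18-led cells (4 of 10 cells against 79.3%) at time 1. Fgf4 and Fgf8 went the other way in primed cells: Fgf8 was found in 36.2% of the cells with a Fgf4 UMI against 53.2% of those without at time 1, and in 28.9% against 37.6% at time 2. In T-led cells it was found in 4 of 20 cells with a Fgf4 UMI against 50.5% of those without at time 1, and in 26.3% against 41.2% at time 2. Cells of 1 library are not replicates, cells that differ in background or are doublets add to joint shares, and the part of these in the figures was not tested.

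Ligand and receptor were set against the product of their shares only in combinations of state and library with at least 10 cells holding both. There, they were found in the same cell at a median of 0.790 to 1.01 times that product. Combinations with fewer joint cells are left out, so these medians do not describe all states. Fgf4 and Fgfr1 were both found in 14.6% (13.1% to 16.2%, Clopper-Pearson) of thinned Jam2-led cells at time 1 and 13.3% at time 2, where the products were both 14.0%. In 1700097N02Rik-led cells at time 2 the share was 12.3%, equal to the product. Fgf8 and Fgfr1 were both found in 32.1% and 43.6% of mesendoderm-like cells, 19.96% and 13.2% of primed epiblast-like cells and 23.5% and 17.4% of T-led cells. Median ratios of the observed share to the product were 0.981 (0.697 to 1.32 over 14 combinations of state and library) for Fgf4 with Fgfr1, 0.994 (0.713 to 1.05 over 12) for Fgf5 with Fgfr1, 1.01 (0.759 to 1.47 over 15) for Fgf8 with Fgfr1 and 0.925 (0.834 to 1.14 over 10) for Fgf15 with Fgfr1. With Fgfr2 they were 0.943 (0.658 to 1.39 over 9) for Fgf4, 0.790 (0.738 to 0.893 over 4) for Fgf5, 0.886 (0.774 to 0.923 over 4) for Fgf8 and 0.880 (0.793 to 1.05 over 4) for Fgf15. To count pairs, the pooled pluripotent class was added to the states, so its cells entered both there and in their own clusters. Of 208 combinations of a ligand, a receptor, a state or that class, and a library, 20 reached 10% of cells. They were 7 of Fgf4, 8 of Fgf8 and 5 of Fgf5, each with Fgfr1, and none with Fgfr2 or Fgf15. With all UMIs in place of thinned cells, 130 reached 10%, so this count depends on depth.

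**Figure D3:**
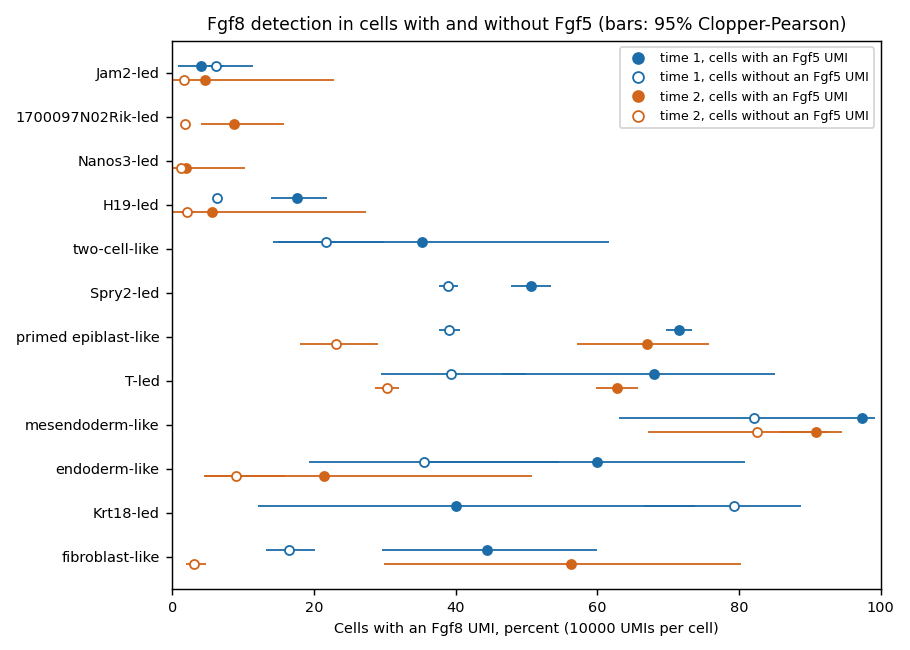
Share of thinned cells with a Fgf8 UMI among cells with and without a Fgf5 UMI, by state and library, with Clopper-Pearson 95% intervals. In primed epiblast-like cells the shares are 71.6% against 39.1% at time 1 and 67.0% against 23.1% at time 2.

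Between the libraries, no member was past 2-fold with at least 10 CPM in the pluripotent class, where 4.6% of genes were, or in primed epiblast-like cells, where 1.5% were. Under that minimum, Fgf5 went from 4.13 to 0.955 CPM in the pluripotent class, a log2 ratio of -1.39, and Fgf8 from 5.57 to 1.64, a ratio of -1.31. In the pluripotent class Fgf4 went from 89.5 to 59.2 CPM, a log2 ratio of -0.59, but the class was mostly Jam2-led cells at time 1 and 1700097N02Rik-led and Nanos3-led cells at time 2. Within each of these clusters Fgf4 moved less: the ratio was 0.27 in Jam2-led cells, 0.17 in 1700097N02Rik-led cells and -0.19 in Nanos3-led cells, and with the H19-led cluster counted as pluripotent the class ratio was 0.31. For Fgfr1, a chromosome 8 gene, the ratio was 0.34 in the class, -0.22 in Jam2-led cells, 0.29 in 1700097N02Rik-led cells and 0.13 in Nanos3-led cells, where the median over chromosome 8 genes at 10 CPM or more was 0.33, 0.03, 0.21 and 0.23.

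Fgf5 and Fgf8 were lower at time 2 in each of the 11 states present in both libraries, and both were lower in the barcodes with few UMIs too, at log2 ratios of -1.02 and -1.39. Less the upper limit of background RNA, the direction turned in 3 of the 11 states for Fgf5 and 5 for Fgf8, which were at 0 at time 1. Fgf5 was then at 0.473, 0.431 and 0.512 CPM in the Jam2-led, Nanos3-led and 1700097N02Rik-led clusters at time 2, and Fgf8 at 0.719, 0.541 and 0.666 CPM there, 1.45 in H19-led and 6.71 in Ctla2a-led cells. With the smaller background level both stayed lower at time 2 in all 11 states, except Fgf8 in Ctla2a-led cells (0.17). The ratio of Fgf8 was -0.57 in mesendoderm-like cells, -0.93 in T-led cells and -0.70 in primed epiblast-like cells, where the background was 2.79%, 1.27% and 1.5% of genes past 2-fold. The sign for primed cells did not hold under other settings: Fgf8 was at 0.31 with doublets kept and 0.39 at a mitochondrial limit of 20%, and Fgf5, at -0.15 as reported, was at 0.45 and 0.47. The calls past 2-fold, which need 10 CPM on either side, were in 3 states. Endoderm-like cells had Fgf5 at -1.99 and Fgf8 at -1.72 (9.65% of genes past 2-fold), two-cell-like cells Fgf5 at -1.31 and Fgf8 at -2.26 (4.3%), and fibroblast-like cells Fgf8 at -1.16 (2.98%). Ratios of that size under the minimum were also found in large states: Fgf5 and Fgf8 were at -1.44 and -1.29 in Jam2-led and -1.09 and -1.44 in H19-led cells, and Fgf8 at -1.23 in Nanos3-led cells. Others under it were -1.18 for Fgf5 in fibroblast-like and -1.04 in Ctla2a-led cells. Median depth in endoderm-like cells was 28352 UMIs at time 1 and 63873 at time 2, and the part of depth was not tested. Mesendoderm markers in these cells summed to 173 CPM at time 1 and 70.1 at time 2, and their part in the fall of Fgf5 and Fgf8 was not tested either. In two-cell-like cells their own markers summed to 900 and 430 CPM, mesendoderm markers to 13.5 and 6.03, and fibroblast markers to 32.7 and 15.9. Macrophage markers in fibroblast-like cells summed to 829 and 25.5 CPM. The part of these shifts was not tested. Less the upper limit of background, the ratios were -2.21 for Fgf5 and -1.78 for Fgf8 in endoderm-like cells and -1.17 and -2.09 in two-cell-like cells. Fgf8 in fibroblast-like cells was then at -0.51, no longer past 2-fold (-1.11 with the smaller level), and Fgf8 in T-led cells at -1.13, past it.

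Of the other members, Fgf4 was higher at time 2 in 6 of the 11 shared states, Fgf15 in 3, Fgfr1 in 7 and Fgfr2 in 1. Less the upper limit of background these counts were 9, 8, 9 and 5, and less the smaller level they stayed 6, 3, 7 and 1. Fgfr1 in mesendoderm-like cells had 41.2 CPM in the first library and 63.3 in the second, and the log2 ratio was 0.61. Fgfr2 in Jam2-led cells had 9.65 and 3.06 CPM, a ratio of -1.39 under the CPM minimum on both sides. In the barcodes with few UMIs, the ratios were 0.10 for Fgf4, 0.01 for Fgfr1, -0.53 for Fgf15 and -0.86 for Fgfr2.

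**Figure D4:**
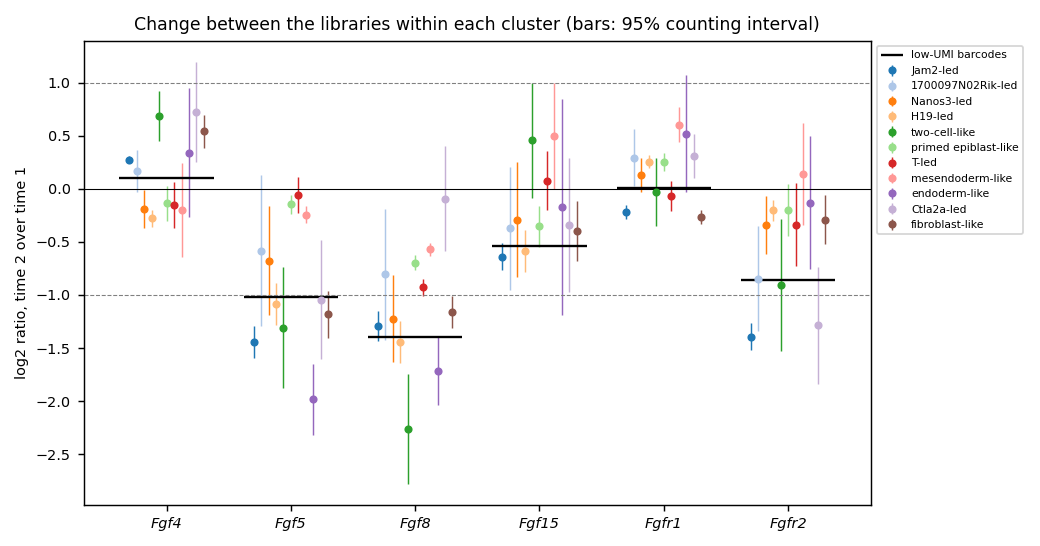
Log2 ratio of CPM plus 1 at time 2 over time 1 for each gene in the 11 states held by both libraries and in barcodes under 2000 UMIs, with intervals for counting error. Fgf5 and Fgf8 lie below 0 in all 11 states and in the low-UMI barcodes (-1.02 and -1.39) before background RNA is subtracted. Subtracting its upper limit turns the sign in 3 and 5 states and subtracting the smaller level in 0 and 1, while Fgf4 and Fgfr1 scatter around 0.

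The pool holds XX, XO and XY lines, and the study concerns X dosage, so pluripotent cells without Y UMIs were split by their summed X-linked UMIs relative to autosomal ones, scaled to cells with at least 2 Y UMIs. Cells at 1.2 or more are called X-high and the rest X-low. Fgf4 was 93.2 CPM in the 1874 X-high and 59.4 in the 161 X-low cells at time 1, a log2 ratio of 0.64 (0.52 to 0.76), and 99.4 in 2715 X-high and 51.5 in 14023 X-low cells at time 2, a ratio of 0.93 (0.91 to 0.96). Fgfr1 was lower in X-high cells, at ratios of -0.38 and -0.52. No member was past 2-fold, where 2.49% and 3.28% of genes were, but Fgf4 lay close to that limit: it passed with an X threshold of 1.5 at time 2 (1.10), with a doublet threshold of 0.2 at time 2 (1.01), and at time 1 with doublets kept (1.07), at 5000 UMIs per cell (1.09), at Leiden resolution 0.3 (1.02) and with FGF genes allowed in clustering (1.24).

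X class and cluster went together. Of the Jam2-led cells 90.4% (time 1) and 92.5% (time 2) were X-high, whereas 1700097N02Rik-led cells were X-high in 1.43% and Nanos3-led cells in 8.26% at time 2. Within each pluripotent cluster at time 2 Fgf4 was also higher in X-high cells, but by less than in the class as a whole. It was 114 CPM (112 to 116) in X-high against 101 (90.7 to 113) in X-low Jam2-led cells, 68.0 against 61.0 in 1700097N02Rik-led cells and 35.3 against 30.1 in Nanos3-led cells. Fgf4 thus differed more between clusters than between X classes of 1 cluster. In the H19-led cluster, where the classes were more even (47.4% and 48.7% X-high), Fgf4 was lower in X-high cells, at -0.41 and -0.24, and Fgfr2 was higher, at 24.4 against 15.5 CPM at time 1 and 18.7 against 15.4 at time 2, where 1.96% and 1.15% of genes were past 2-fold and none of the members at 10 CPM or more was. Just under that minimum, Fgf5 was 9.16 CPM (8.75 to 9.58) in X-high and 3.62 (3.33 to 3.94) in X-low H19-led cells at time 1, a ratio of 1.14, but 2.35 and 2.75 at time 2, a ratio of -0.16. At time 1 the X-high level lay above the 4.80 CPM upper limit of background and the X-low level under it. Fgfr1 did not show the fall of the pluripotent class in X-high H19-led cells at time 1. Its ratio lay above 83.4% of chromosome 8 genes, whose upper quartile was -0.003. At time 2 it lay above 60.3% of them, between their median of -0.13 and upper quartile of 0.004.

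**Figure D5:**
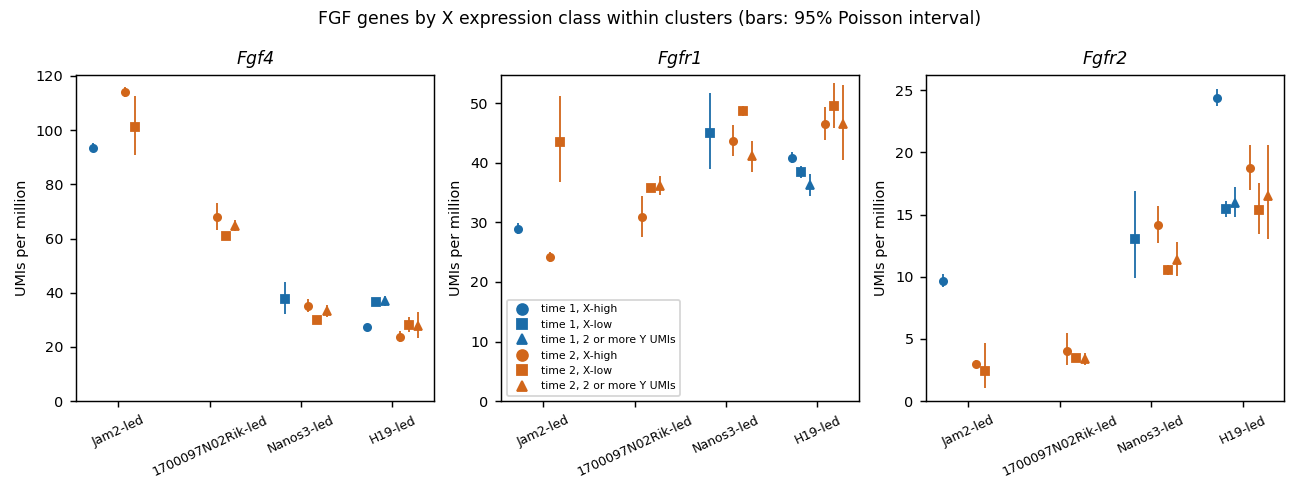
Fgf4, Fgfr1 and Fgfr2 levels (CPM, with exact Poisson 95% intervals) in X-high and X-low cells and in cells with at least 2 Y UMIs, by library, for each pluripotent cluster and for the H19-led cluster, in groups of at least 50 cells. In Jam2-led cells at time 2 Fgf4 is 114 in X-high and 101 in X-low cells, while Nanos3-led cells have 35.3 and 30.1.

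Fgfr1 lies on chromosome 8, which is gained in part of the cells. For each cell, UMIs from 647 chromosome 8 genes, a sum that left Fgfr1 out, were divided by UMIs from genes on most other autosomes. Gain cells were those with at least 1.3 times the median of this ratio over pluripotent and H19-led cells of time 1. The rest are called cells without a gain, though how many of them carry one was not tested. Among X-low pluripotent cells at time 2, Fgfr1 was 41.4 CPM in 11516 cells with a gain and 32.9 in 2507 without, a log2 ratio of 0.33 (0.28 to 0.37), beside a median of 0.29 over 425 chromosome 8 genes at 10 CPM or more. At time 1 the ratio was 0.17 (-0.16 to 0.50) over 38 and 123 cells, where the chromosome 8 median was 0.52. In the H19-led cluster it was 0.30 and 0.45, beside medians of 0.47 and 0.44. The gain was defined from chromosome 8 genes, with Fgfr1 left out, and that choice itself can raise these medians. They are therefore no independent measure to set Fgfr1 against. No member passed 2-fold by gain in pluripotent cells, where 1.62% and 0.0586% of genes did. Fgfr1 was lower in X-high cells also among cells without a gain, at -0.33 and -0.38. The chromosome 8 medians there were -0.04 and -0.15, beside -0.02 and 0.003 over all genes, so at time 2 chromosome 8 as a whole was still lower in X-high cells. In X-low Jam2-led cells at time 2, Fgfr1 was 43.6 CPM against 24.2 in X-high ones, and 51.4% and 0.774% of these cells had the gain.

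The rest of the pathway was read from lists of genes by role, among genes at 10 CPM or more. Feedback and target genes were the list that stood highest in primed epiblast-like over pluripotent cells: 7 of 12 were past 2-fold upwards and 0 downwards at time 1, with a median log2 ratio of 1.07 beside 0.04 over all genes, of which 6.89% were past it upwards and 7.14% downwards. Egr1, an immediate early target of ERK, was at 174 against 28.8 CPM (2.56), and Dusp6, the ERK phosphatase, at 54.3 against 14.9 (1.80). At time 2, 3 of 11 were higher and 1 lower, with a median of 0.63 beside 0.07, where 11.0% of all genes were higher and 4.84% lower. Egr1 (1.82) and Dusp6 (1.44) stood higher, while Etv4, a transcription factor downstream of FGF, was lower at 24.5 against 65.5 CPM (-1.38). Of the 12 genes of this list, mesendoderm-like cells had 5 higher at time 1 (10.4% of all genes, and 9.52% lower) and 5 higher and 1 lower at time 2 (11.3% and 8.22%). Dusp4, another ERK phosphatase, was at 3.12 and Egr1 at 2.57 at time 1, and Dusp6 was at 2.204 and Etv4 at -1.56 at time 2. Of 15 signal transducers, 1 was higher (Shc1, 1.02 in both libraries) in primed cells, no larger a share than the 6.89% and 11.0% of all genes. Gab1, a docking protein, was lower in mesendoderm-like cells, at -1.92 and -2.29, where 9.52% and 8.22% of all genes were lower. Egr1, Fgf8 and Fgf5 also belong to the leading genes by which the primed epiblast-like cluster stood apart, so their levels there are a description.

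Heparan sulfate and proteoglycan genes, whose products FGFs need to bind their receptors, moved most in feeders: 7 of 10 were higher and 2 lower at time 1 (20.2% and 14.5% of all genes), and 6 higher and 0 lower at time 2 (19.6% and 6.81%). They were led by Sdc2, a syndecan, at log2 ratios of 3.36 and 3.55, with Sdc1 next at time 1 (2.54) and Gpc4 at time 2 (2.41). In mesendoderm-like cells 3 of 9 were higher and 1 lower at time 1 (10.4% and 9.52% of all genes), and 4 of 9 higher and 2 lower at time 2 (11.3% and 8.22%), with Gpc3, a glypican, at 1.97 and 2.58. In primed cells 1 of 9 was lower at time 1 (Sdc4, -1.22), where 7.14% of all genes were, and 2 of 9 were higher at time 2 (Sdc2, 1.16, and Sdc1, 1.08), where 11.0% were. Both genes are among those highest in feeders, and fibroblast markers in the primed cells summed to 31.9 CPM at time 1 and 160 at time 2. Endoderm markers there summed to 181 and 399 CPM and trophoblast markers to 16.1 and 50.3, while mesendoderm and macrophage markers did not rise. The part of these other markers' cells in the ratios was not tested. None of the other 5 receptor and coreceptor genes reached 10 CPM in primed or pluripotent cells. In endoderm-like cells at time 2, the coreceptor Klb was at 18.5 CPM against 0.113 and Fgfr4 at 13.1 against 0.622, and Fgfrl1 was higher in fibroblast-like cells at time 1 (14.0 against 3.73 CPM) and in mesendoderm-like cells at time 1 (11.1).

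Of the 18 other genes named Fgf and a number, a list made by name and not by role, 6 reached 10 CPM in some state and library and 6 were under 1 CPM in all. Fibroblast-like cells carried Fgf2, the basic FGF, at 32.6 and 37.2 CPM and Fgf7, a ligand made by mesenchyme, at 33.5 and 23.0, against under 1 CPM of either in the pluripotent class. Fgf10 was highest in mesendoderm-like cells at time 1, at 25.02 CPM, and in endoderm-like cells at time 2, at 29.5, and endoderm-like cells at time 2 also held Fgf3, the neighbour of Fgf4 on chromosome 7, at 35.0 CPM against 5.99 at time 1. Fgf17, a relative of Fgf8, did not follow it: it was highest in 1700097N02Rik-led cells, at 26.1 and 27.2 CPM, where Fgf8 was near its lowest. Fgf1, named after its level was seen, was found in two-cell-like cells, at 39.2 and 23.2 CPM.

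The genes whose level over states was most like that of each member were ranked by Pearson's r of log2 CPM plus 1 over 24 points (states and libraries with at least 50 cells), among 4371 genes at 50 CPM or more in at least 1 point. The points share their library and its background, so r is a description. Fgf5 and Fgf8 were nearest to each other (0.959), followed for Fgf5 by Emb (0.903) and Psmb8 (0.902) and for Fgf8 by Psmb8 (0.945) and Idnk (0.926). Nearest to Fgf4 were Hsd17b14 (0.934), Zfp990 (0.926) and Chchd10 (0.915). Nearest to Fgf15 were Pim2 (0.853), Pou3f1 (0.829) and Tcfl5 (0.773), Pim2 and Pou3f1 being primed markers used to name states. Nearest to Fgfr1 were Mast4 (0.882), Spred1 (0.853), itself an inhibitor of the pathway, and Fat1 (0.851). Nearest to Fgfr2 were Fbxo21 (0.882), Sfmbt2 (0.846), an imprinted trophoblast gene, and Gnpda1 (0.784). Fgf4 ran against Fgf5 (-0.698) and Fgf8 (-0.657), and neither receptor followed any ligand beyond 0.347 in size.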

How the data were processed

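Droplet single-cell RNA was sequenced, with 10x Chromium chemistry per the labels' protocols, as 1 library for each time point. Deposited are the authors' whole-number UMI counts for every gene and listed barcode, not normalised, made with bcl2fastq 2.20.0.422 and Cell Ranger 6.1.2 on build mm10 (GRCm38), per the submitters' processing notes. The smallest listed barcodes have 500 UMIs at time 1 and 524 at time 2, so emptier barcodes are absent. The annotation release used for counting and its use of strand are not given in the sources used here. Of 32285 listed genes, 32235 matched GENCODE M21 by identifier, which gave chromosomes for clustering. RefSeq GRCm38.p6 gave gene positions and promoters, present for Fgf4, Fgf5 and Fgfr2; Fgf8, Fgf15 and Fgfr1 had no entry.

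A barcode was a cell if its UMIs reached 0.1 times the 99th percentile over the 20000 largest barcodes (18315 UMIs at time 1, 18645 at time 2), with 1000 or more genes and mitochondrial UMIs of 10% or less. Doublets were scored by Scrublet through scanpy 1.11.5. It marked 1331 (5.17%) at time 1, and its automatic threshold marked none at time 2, so the time 1 threshold was used there and marked 2478 (8.77%). Marked cells were removed. Leiden clustering (resolution 0.5, igraph 0.11.9) used 15 neighbours in 30 principal components of 2000 variable autosomal genes. How markers became names was settled once the clusters had been seen. The members, lists and markers were chosen with earlier results of these data known. Named genes are the members, the 3 genes most correlated with each, and per list at most the 2 highest and 2 lowest ratios of a comparison. Comparisons used summed UMIs scaled to CPM with a pseudocount of 1. Levels have exact Poisson and shares Clopper-Pearson 95% intervals, both for counting error only. Background RNA was estimated from collagen genes in barcodes under 2000 UMIs with at most 5% mitochondrial UMIs. Code was tested on simulated data. Alternatives changed 1 choice at a time, with edgeR 4.0.16 in R 4.3.3 giving scaling factors. Other steps used pandas 2.3.3, scipy 1.17.1 and numpy 2.4.6 under Python 3.11.15.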

Additional observations from a re-analysis of the deposited data

How the results depend on the processing

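Each library is 1 sample, so no result was tested and no replicate could be left out. No paired analysis was possible because each time point has 1 library. Of 202 counts of members past 2-fold or of shares past a limit under alternatives, 187 stayed within 1.5 times the reported count and 15 did not. For primed epiblast-like over pluripotent cells at time 1 the count was 5 with the upper limit of background RNA subtracted and 5 with the H19-led cluster added (3 reported). For X-high over X-low cells at time 1 it was 1 with doublets kept, 2 at 5000 UMIs per cell, 1 at Leiden resolution 0.3 and 1 with FGF genes allowed in clustering, and at time 2 it was 1 at doublet threshold 0.2 and 1 at X threshold 1.5 (0 reported). Without a CPM minimum, it was 4 for fibroblast-like cells at time 2 (2 reported) and 2 for time 2 over time 1 in pluripotent cells (0 reported), where the H19-led cluster gave 1. For time 2 over time 1 in primed cells it was 1 at a mitochondrial limit of 20% and 1 at Leiden resolution 1 (0 reported). With all UMIs, 111 of 156 shares reached 20% of cells in place of 52, and 130 pairs of ligand and receptor reached 10% in place of 20. Both counts hold the pooled pluripotent class beside its own clusters. These counts depend on depth. The cause of the other shifts was not tested. Of 1200 single ratios in the class, X and chromosome 8 comparisons and in the pluripotent and primed classes over time, 487 moved beyond counting error, 43 of them to the other sign, of which 2 had been past a log2 ratio of 1 in size: Fgf5 and Fgf8 in pluripotent cells over time, at 0.57 and 0.71 with that limit subtracted (-1.31 and -1.03 with the smaller background level). This count leaves out the ratios of single states over time. There, that limit turned Fgf5 in Jam2-led cells to 0.56 and Fgf8 to 0.78 in Jam2-led, 1.29 in H19-led and 0.62 in Nanos3-led cells. Subtraction had set all of these levels to 0 at time 1, so any remainder at time 2 gave a positive sign. No cluster matched the mesendoderm-like one with doublets kept, at 5000 UMIs per cell, at a mitochondrial limit of 20% or with FGF genes allowed in clustering, so those settings gave no value for it. The H19-led, T-led, doublet threshold, chromosome 8 and smaller background alternatives were added after seeing the data.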
